A study of Mus musculus with 12 samples.

Results

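Immediate early genes are the genes that cells transcribe within minutes of a stimulus without first making new protein. The 10 described here are Fos, Fosb, Jun, Junb, Egr1, Ier2, Ier3, Dusp1, Atf3 and Zfp36. They were chosen by gene symbol among 38087 genes with an Ensembl identifier, and each symbol matched 1 gene. All 10 passed the filter on low counts, as did 13889 genes in all.

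Their messenger RNA was measured in colonic mucosa of mice of 2 genotypes, with 6 libraries of Sgo1-/+ and 6 of wild type. Sgo1 encodes shugoshin 1, which protects the cohesion of sister chromatids at the centromere, and the study addressed chromosome instability in the colon. Mice of both genotypes had been dosed with the colon carcinogen azoxymethane (4 mg/kg, 2 times weekly, weeks 8 to 12 of life), and their tissue was taken at 9 months. The labels number the samples without saying that each came from its own mouse, and a p-value here speaks only of the spread among these samples, which may be technical.

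Growth factors, stress and tissue handling switch these genes on through MAP kinases, which activate transcription factors such as SRF with its ETS partners and CREB. Most of the early proteins are transcription factors: Fos and Jun family proteins pair to form AP-1, while EGR1 and ATF3 bind other sites. DUSP1 and ZFP36 close the loop, the first by dephosphorylating MAP kinases and the second by sending AU-rich messenger RNAs, early ones among them, to decay.

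Libraries held 5711553 to 10198304 counts. The targeted gene, listed as Sgol1, averaged 2.33 ± 0.41 CPM (counts relative to library size, TMM scaled) in Sgo1-/+ and 3.65 ± 1.79 CPM in wild type (SD, n = 6 each), with an adjusted p of 0.551 in edgeR. The label of mucosa was checked against marker genes: 12 epithelial markers summed to 17705 to 27886 CPM per library in Sgo1-/+ and to 16236 to 27179 CPM in wild type, while 8 smooth muscle markers summed to 24.4 to 36.5 CPM in Sgo1-/+ and 22.8 to 48.8 CPM in wild type. Libraries stood apart in the share of counts summed over Gm13340, Gm13341, Gm11410, Gm10925, Gm28661 and Gm29216. The first 3 are pseudogenes that are 92.9% to 97.6% identical to mitochondrial transcripts, and the others were not compared. This mitochondrial-like share was 37.4% to 38.8% in Sgo1-/+ replicate 3 and wild type replicates 3 and 5, and 10.4% to 22.3% in the other 9 libraries. Results are therefore also given without these 3 libraries.

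The DNA before the start of 8 of the 10 genes was taken from RefSeq on GRCm38.p6, which has the coordinates of mm10. Fos lies on chromosome 12 at 85473890 to 85477273 on the plus strand, and Dusp1 on chromosome 17 at 26505590 to 26508519 on the minus strand. Both are protein-coding, and they are shown because the ratio of their counts separated the genotypes. Fosb (chromosome 7, 19302721 to 19310045, minus strand) and Atf3 (chromosome 1, 191170296 to 191183340, minus strand) are shown for another reason. Their TMM-scaled levels were highest in the 3 libraries rich in mitochondrial-like reads. The stretches are chr12:85473690-85473889, chr17:26508520-26508672, chr7:19310046-19310245 and chr1:191183334-191183533. They run 5′ to 3′ on the gene's strand, and capitals mark TGACG, the core of a CREB and ATF site, on either strand (as CGTCA on the other strand). The last 7 bases of the Atf3 stretch, which hold its CGTCA, lie before the RefSeq start but inside the gene as the deposited files place it.
Fos: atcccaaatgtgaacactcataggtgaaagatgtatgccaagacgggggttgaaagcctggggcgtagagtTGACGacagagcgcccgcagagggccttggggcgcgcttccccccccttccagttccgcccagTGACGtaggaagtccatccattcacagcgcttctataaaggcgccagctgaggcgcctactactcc
Dusp1: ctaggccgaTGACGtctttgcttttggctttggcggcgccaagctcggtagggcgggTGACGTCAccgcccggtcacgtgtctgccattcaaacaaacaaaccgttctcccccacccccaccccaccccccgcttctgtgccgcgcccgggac
Fosb: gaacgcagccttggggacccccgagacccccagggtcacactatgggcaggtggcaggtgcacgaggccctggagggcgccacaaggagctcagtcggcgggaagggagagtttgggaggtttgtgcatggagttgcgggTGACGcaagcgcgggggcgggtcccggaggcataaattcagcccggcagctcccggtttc
Atf3: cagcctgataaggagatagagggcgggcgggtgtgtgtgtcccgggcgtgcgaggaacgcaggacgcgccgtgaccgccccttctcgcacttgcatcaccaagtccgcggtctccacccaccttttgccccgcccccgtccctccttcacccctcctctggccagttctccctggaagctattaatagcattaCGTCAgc
Dusp1 carried the full palindrome TGACGTCA 143 bases before its RefSeq start, with a further TGACG 191 bases before it. Fos held TGACG 129 and 66 bases before its start and TATAAA 33 bases before it. In windows of 250 bases before to 50 after the start, TGACG was present in 5 of the 8 genes (Fos, Fosb, Junb, Dusp1 and Atf3), against 20.8% of 32851 mouse promoter windows of that length. Dusp1 alone held TGACGTCA, found in 1.79% of windows, which overlaps the TGACG motif. The AP-1 motif TGANTCA was in none of the 8, against 7.81% of windows. The EGR motif GCGNGGGCG was in Fosb and Zfp36 (5.55% of windows), the CArG box of SRF in Zfp36 (1.63%), and TATAAA in Fos and Junb (13.6%). All motifs were searched on both strands, and a match describes letters in the window, not a bound site.

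The comparison of genotypes asked whether levels of the early genes depended on genotype. In edgeR 0 of the 10 passed an adjusted p of 0.05, where 0.0% of all 13889 genes did. DESeq2 called 0 of the 10 as well, against 0.216% of all genes. The log2 change was below 0 for 8 of the 10, against 51.0% of all genes. Scaling by total counts in place of TMM moved the median of all genes up by 0.32 log2, and 4 of the 10 (Jun, Egr1, Dusp1 and Atf3) were then below 0, or the same 8 relative to that shift. Their median was -0.25, against -0.01 for all genes tested. At an unadjusted p under 0.05 edgeR had 2 of the 10, Dusp1 and Jun, both lower in Sgo1-/+, against 9.04% of all genes in either direction, 4.31% higher and 4.73% lower. The CPM of the genotypes overlapped for all 10, and failed to overlap for 0.346% of all genes. In bulk tissue, fewer cells of a type and less RNA per cell cannot be told apart.

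**Figure D1:**
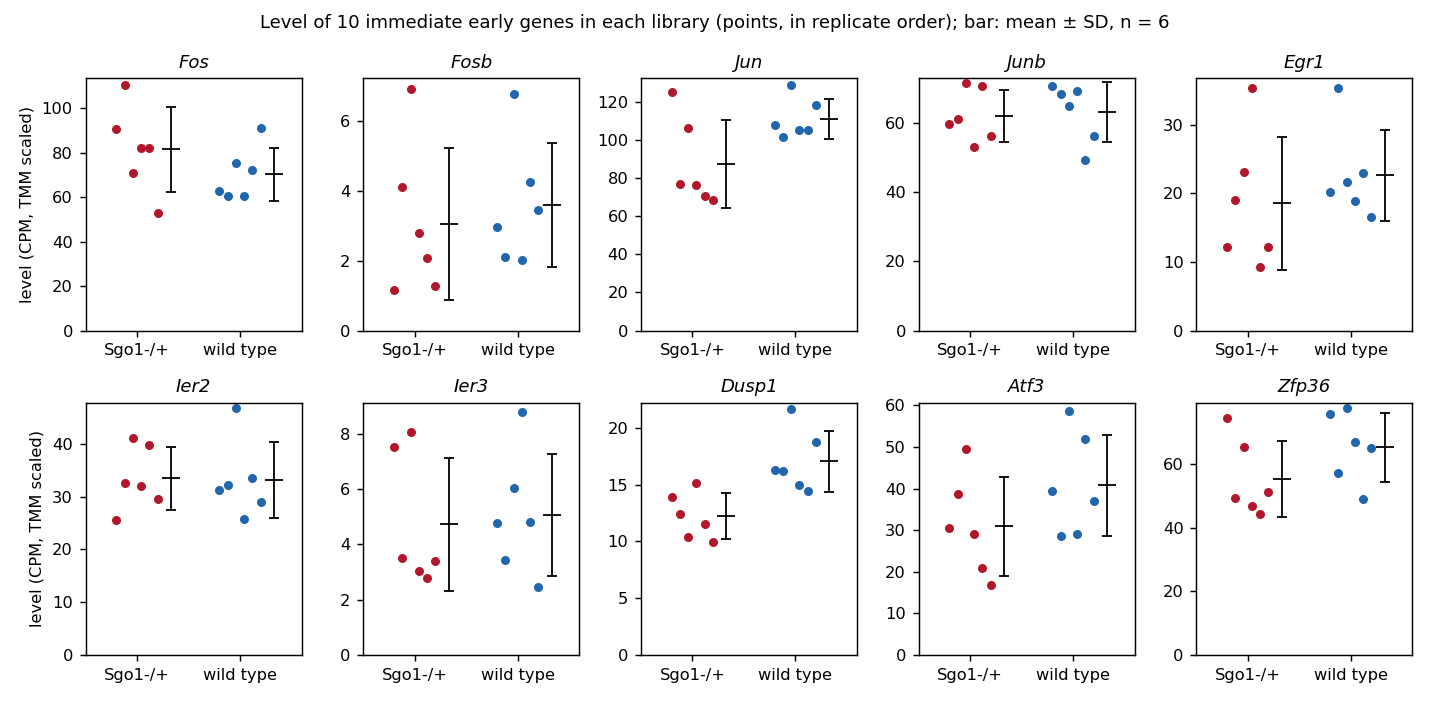
Level of each of the 10 genes in CPM (TMM scaled; linear axes from 0), with Sgo1-/+ libraries on the left and wild type on the right of each panel; points are libraries in replicate order and bars the mean ± SD of 6. For Dusp1, 5 of the 6 Sgo1-/+ points lie below every wild type point, and in every panel the genotypes overlap.

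Dusp1, the MAP kinase phosphatase, had the largest difference in size among the 10. Its lowest, median and highest levels were 9.91, 11.9 and 15.1 CPM in Sgo1-/+ and 14.4, 16.2 and 21.6 CPM in wild type. Of the Sgo1-/+ libraries 5 of 6 were below the lowest wild type library, and replicate 4 lay inside the wild type range. The means were 12.2 ± 2.02 CPM in Sgo1-/+ and 17.0 ± 2.70 CPM in wild type (SD, n = 6 each). The log2 change was -0.48 ± 0.15 (SE; edgeR adjusted p = 0.491). Before adjustment edgeR gave p = 0.00616, and the exact two-sided permutation test on mean log2 CPM gave a difference of -0.48 (p = 0.00649). Of all genes, 8.62% had an exact permutation p under 0.05. When single libraries were left out, this exact permutation p ran between 0.00216 and 0.0152. Under scaling by total counts the difference was -0.15 (exact permutation p = 0.522) and the log2 change -0.13, which is -0.45 relative to the shift of all genes. These levels rest on 45 to 189 counts per library. Without the 3 libraries rich in mitochondrial-like reads, the log2 change was -0.39 (edgeR adjusted p = 0.377).

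Jun, the main partner of Fos in AP-1, lies on chromosome 4 at 95049034 to 95052222. Its lowest, median and highest levels were 68.5, 76.5 and 125 CPM in Sgo1-/+ and 101, 106 and 129 CPM in wild type. Of the Sgo1-/+ libraries 4 of 6 were below every wild type library, while replicates 1 and 3 reached 125 and 106 CPM, inside the wild type range. The log2 change was -0.35 ± 0.15 (SE; edgeR p = 0.0385, adjusted p = 0.536), and the exact permutation difference in mean log2 CPM was -0.38 (p = 0.0433). The spread was wider in Sgo1-/+, at 87.2 ± 23.0 CPM, than in wild type, at 111 ± 10.5 CPM (SD, n = 6 each). The difference between these spreads was not tested. When single libraries were left out, the exact permutation p for Jun ran between 0.00866 and 0.0801. This unadjusted p was above 0.05 when wild type replicate 3 or 6, or Sgo1-/+ replicate 2, 4, 5 or 6, was left out, with differences of -0.32 to -0.36. Under scaling by total counts the difference was -0.050 (exact permutation p = 0.797) and the log2 change -0.034, which is -0.35 relative to the shift of all genes. Jun overlaps the opposite-strand gene BC042782, which held 102 counts summed over all libraries, against 9144 for Jun.

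Fos had the highest log2 change of the 10. Its lowest, median and highest levels were 52.9, 82.1 and 111 CPM in Sgo1-/+ and 60.4, 67.4 and 91.1 CPM in wild type. The highest and the lowest library of all were both Sgo1-/+, replicates 2 and 6. The log2 change was 0.21 ± 0.16 (SE; edgeR adjusted p = 0.704), and 4 of 6 Sgo1-/+ libraries lay inside the wild type range. When single libraries were left out the log2 change ran between 0.12 (without Sgo1-/+ replicate 2) and 0.33 (without Sgo1-/+ replicate 6). Scaled by total counts it was 0.54, which is 0.23 relative to the shift of all genes. In the 4 libraries whose column name carries a suffix mean log2 CPM differed by -0.20, and in the other 8 by 0.38.

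The other AP-1 genes overlapped as well. Junb, a JUN relative that is a weaker activator, lies on chromosome 8 at 84976909 to 84978748 and averaged 62.1 ± 7.54 CPM in Sgo1-/+ and 63.2 ± 8.59 CPM in wild type (SD, n = 6 each). Its log2 change of -0.03 ± 0.12 (SE) had an edgeR adjusted p of 0.956, and its spread over all 12 libraries was the smallest of the 10, a coefficient of variation of 12.3%. Fosb, a FOS relative, had lowest, median and highest levels of 1.16, 2.44 and 6.93 CPM in Sgo1-/+ and of 2.02, 3.22 and 6.78 CPM in wild type. At 12 to 40 counts per library it was the least expressed of the 10, with a coefficient of variation of 57.6% where counting alone gives 20.9%. Its log2 change of -0.25 ± 0.45 (SE; edgeR adjusted p = 0.880) was smaller than its error.

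Among the other transcription regulators, Atf3, a stress-induced bZIP factor, had lowest, median and highest levels of 16.9, 29.8 and 49.4 CPM in Sgo1-/+ and of 28.6, 38.2 and 58.5 CPM in wild type. Its log2 change was -0.40 ± 0.26 (SE; edgeR adjusted p = 0.649). Sgo1-/+ replicates 5 and 6 were below every wild type library. Egr1, a zinc finger factor on chromosome 18 at 34859823 to 34864984, averaged 18.5 ± 9.68 CPM in Sgo1-/+ and 22.6 ± 6.65 CPM in wild type, with a log2 change of -0.29 ± 0.30 (SE; edgeR adjusted p = 0.772). Leaving out single libraries gave -0.58 at the lowest, with Sgo1-/+ replicate 4 removed, and -0.092 at the highest, with wild type replicate 2 removed. Sgo1-/+ replicate 4 and wild type replicate 2 stood out at 35.3 and 35.4 CPM, with all other libraries at 23.1 CPM or below. Ier2, a small nuclear early protein on chromosome 8 at 84661331 to 84662852, averaged 33.5 ± 5.93 CPM in Sgo1-/+ and 33.1 ± 7.21 CPM in wild type, with a log2 change of 0.02 ± 0.15 (SE; edgeR adjusted p = 0.983).

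Of the remaining feedback and survival genes, Zfp36 on chromosome 7 at 28376784 to 28379255 averaged 55.3 ± 11.9 CPM in Sgo1-/+ and 65.3 ± 10.9 CPM in wild type. Its log2 change was -0.24 ± 0.15 (SE; edgeR adjusted p = 0.644). Ier3, which is linked to cell survival, lies on chromosome 17 at 35821684 to 35822923 and averaged 4.72 ± 2.41 CPM in Sgo1-/+ and 5.05 ± 2.21 CPM in wild type, with a log2 change of -0.11 ± 0.36 (SE; edgeR adjusted p = 0.939). Its high libraries were replicates 1 and 3 in Sgo1-/+ at 7.52 and 8.08 CPM and replicate 4 in wild type at 8.80 CPM. Like Fosb, Ier3 was measured on few counts, 17.0 to 77.9 per library.

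**Figure D2:**
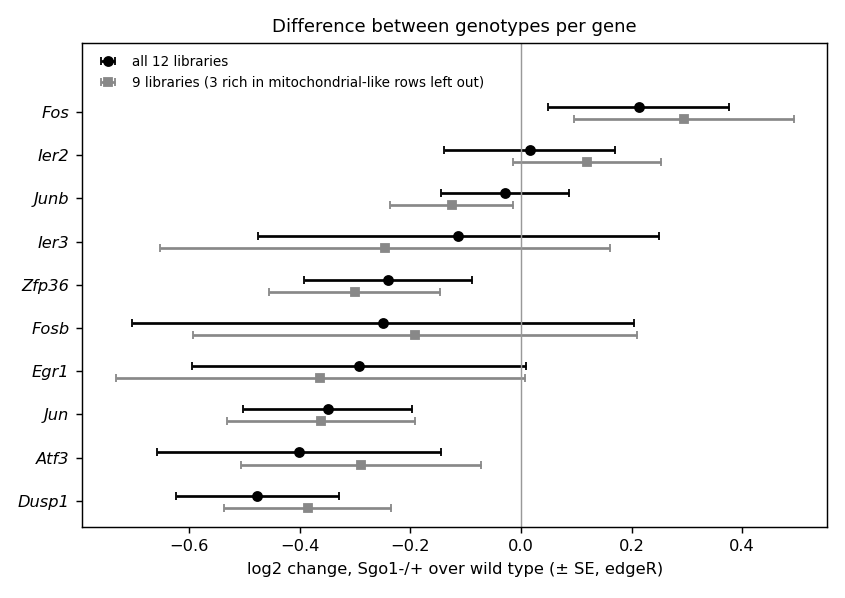
Log2 change of each gene in Sgo1-/+ over wild type (x axis, ± SE from edgeR), for all 12 libraries (black circles) and for the 9 left without the libraries rich in mitochondrial-like reads (grey squares). Dusp1 stands lowest at -0.48 and Fos highest at 0.21 with all libraries; without the 3 libraries the values are -0.39 and 0.30.

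Since the log2 changes of Fos and of Jun and Dusp1 differed in sign, the ratio of counts between members was compared within each library, which needs no scaling between libraries. This comparison was added after the levels had been seen. The ratio of Fos to Dusp1 counts had a lowest, median and highest value of 5.32, 6.65 and 8.93 in Sgo1-/+ and of 3.48, 3.93 and 4.99 in wild type. Every Sgo1-/+ library was above every wild type library. The mean log2 ratio was 2.72 ± 0.28 in Sgo1-/+ and 2.04 ± 0.21 in wild type (SD, n = 6 each), a difference of 0.68. The exact two-sided permutation p was 0.00216, the smallest that 6 against 6 can give, and 0.0974 after Benjamini-Hochberg adjustment over the 45 ratios among the 10 genes. It was the only one of the 45 whose genotypes did not overlap. Ratios to Dusp1 did not overlap between genotypes for 6.96% of all 13888 other genes, so separation of this kind was not particular to Fos. Without the 3 libraries rich in mitochondrial-like reads, the difference was 0.68 as well (exact permutation p = 0.00794). This p is the smallest that 5 against 4 libraries can give. Groups that do not overlap in all libraries cannot overlap in a part of them, so it is no separate test.

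The ratio of Fos to Jun counts had a lowest, median and highest value of 0.671, 0.925 and 1.44 in Sgo1-/+ and of 0.575, 0.593 and 0.770 in wild type. In counts, Fos exceeded Jun in Sgo1-/+ replicates 2, 4 and 5, and in none of the wild type libraries. Counts are not corrected for exon length, which was 2352 bases for Fos and 3189 for Jun. Per kilobase Fos exceeded Jun in 5 of 12 libraries, wild type replicate 6 among them. The mean log2 ratio was -0.09 ± 0.44 in Sgo1-/+ and -0.67 ± 0.17 in wild type (SD, n = 6 each), a difference of 0.57 with overlapping groups (exact permutation p = 0.0130, adjusted over 45 ratios p = 0.292). Of the 45 ratios 5 had an exact permutation p under 0.05 and 0 passed the adjustment. Ratios to Jun did not overlap for 0.763% of all other genes.

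**Figure D3:**
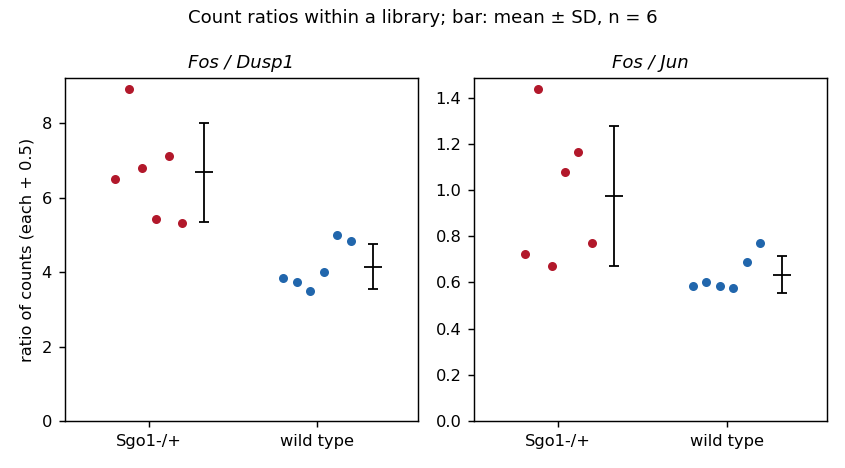
Ratio of Fos counts to Dusp1 counts (left) and to Jun counts (right) in each library (each count plus 0.5, linear axes from 0), with Sgo1-/+ left of wild type and bars for the mean ± SD of 6. For Fos over Dusp1 the Sgo1-/+ points run from 5.32 to 8.93 and the wild type points from 3.48 to 4.99 without overlap; for Fos over Jun the groups overlap.

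To compare levels between genes, CPM was divided by exon length in kilobases. Over all 12 libraries, Junb had the highest level at 34.6 ± 4.27 CPM per kb (SD, n = 12), followed by Fos at 32.3 ± 6.95 and Jun at 31.1 ± 6.62 CPM per kb. These 3 were not separated: Junb exceeded Fos in 7 of 12 libraries and Fos exceeded Jun in 5 of 12. Their order also differed by genotype: in Sgo1-/+ it was Fos at 34.7, Junb at 34.3 and Jun at 27.3 CPM per kb, and in wild type Junb at 35.0, Jun at 34.8 and Fos at 29.96 CPM per kb. Zfp36 at 24.4 ± 4.89 CPM per kb was below Jun in 12 of 12 libraries and above Ier2, at 21.9 ± 4.14 CPM per kb, in 7 of 12. Atf3 followed at 18.1 ± 6.34 CPM per kb, and was above Dusp1, at 5.42 ± 1.26 CPM per kb, in 12 of 12. Dusp1, Egr1 at 4.59 ± 1.83 and Ier3 at 4.32 ± 1.96 CPM per kb were close, with Egr1 above Ier3 in 6 of 12 libraries. Fosb was last at 0.54 ± 0.31 CPM per kb, below Ier3 in 12 of 12.

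Whether the early genes went up and down together from library to library was examined on log2 CPM after subtraction of each genotype's mean. Of the 45 pairs 34 had a Pearson correlation above 0, with a median of 0.21 and a range of -0.22 to 0.85. None of the 45 passed an adjusted p of 0.05 in a permutation test with 100000 resamples. The pairs with the smallest p were Fosb with Atf3 and Jun with Zfp36. For Fosb with Atf3, r was 0.85 (adjusted permutation p = 0.0754) and Spearman's rho 0.76 (adjusted permutation p = 0.222), with r = 0.72 after leaving out the 2 libraries farthest from the median and 0.66 over the 9 libraries not rich in mitochondrial-like reads. For Jun with Zfp36, r was 0.81 (adjusted permutation p = 0.0754) and rho 0.80 (adjusted permutation p = 0.171), with 0.63 after leaving out 2 libraries and 0.85 over the 9.

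Single libraries carried much of the shared variation. Wild type replicate 3 was above its genotype mean for 9 of the 10 genes and Sgo1-/+ replicate 3 for 8. Sgo1-/+ replicate 6 was below its genotype mean for all 10, with 0 above. The number of pairs with r above 0 was 25 of 45 over the 9 libraries not rich in mitochondrial-like reads, with a median r of 0.07. Without Sgo1-/+ replicate 6 it was 28 of 45, with a median r of 0.06, and without wild type replicate 3 it was 28 of 45, with a median r of 0.10. In the other direction, it was 38 of 45 without Sgo1-/+ replicate 1 (median r of 0.30) and 38 of 45 without Sgo1-/+ replicate 5 (median r of 0.18), with 2 pairs past the adjusted threshold in each case.

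**Figure D4:**
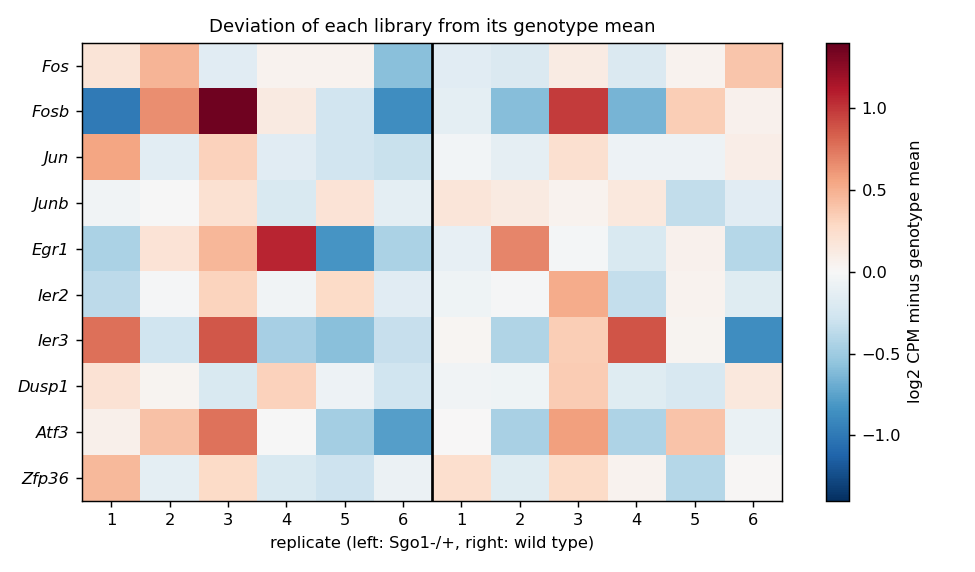
Log2 CPM of each gene minus the mean of its genotype (colour scale, red above and blue below), for the 10 genes down the page and the 12 libraries across, with Sgo1-/+ replicates left of the line and wild type replicates right of it. Replicate 3 of each genotype is red in 8 (Sgo1-/+) and 9 (wild type) of 10 genes, and Sgo1-/+ replicate 6 is blue in all 10.

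In TMM-scaled CPM, Atf3 and Fosb were highest in the 3 libraries rich in mitochondrial-like reads, and the other 8 genes were not. This order depended on the scaling. TMM factors were 0.63 and 0.70 in wild type replicates 3 and 5, and 0.75 in Sgo1-/+ replicate 3. Unscaled, Atf3 had 265 of 6339971 counts in wild type replicate 1, against 233 of 6363173 in wild type replicate 3. Fosb had 40.0 of 9161310 in Sgo1-/+ replicate 2, against 15.7 of 5378643 in wild type replicate 5. Atf3 stood at 49.4 CPM in Sgo1-/+ replicate 3 and at 58.5 and 52.0 CPM in wild type replicates 3 and 5, against 16.9 to 39.5 CPM in the other 9 libraries. Fosb stood at 6.93 CPM in Sgo1-/+ replicate 3 and at 6.78 and 4.27 CPM in wild type replicates 3 and 5, against 1.16 to 4.13 CPM in the others. The high libraries came from both genotypes. Since the libraries fall into separate clusters, correlations with the mitochondrial-like share are given only within the 9. Those over all libraries were computed too and are not given. There r was 0.72 for Atf3 (exact permutation p = 0.0306) with rho = 0.63 (exact permutation p = 0.0799). For Fosb r was 0.69 (exact permutation p = 0.0455) with rho = 0.50 (exact permutation p = 0.186). Over the 120 relations computed between library measures and the 10 genes, the adjusted p of both r was 0.510, and that of rho was 0.947 for Atf3 and 1.0 for Fosb. After leaving out the 2 libraries farthest from the median, r was 0.60 for Atf3 and 0.51 for Fosb.

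The mitochondrial-like share was itself unequal between genotypes. Among the 9 libraries it ran from 10.4% to 19.8%, with a median of 13.4%, in 5 Sgo1-/+ libraries and from 14.2% to 22.3%, with a median of 20.7%, in 4 wild type libraries. With the share as a covariate in edgeR, the log2 change was -0.09 for Atf3 and 0.21 for Fosb. Its part in the differences between genotypes was not tested further. Without the 3 libraries, the log2 change was 0.30 for Fos, -0.36 for Jun and -0.29 for Atf3 in edgeR, and 0 of the 10 genes passed.

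Marker sums of other cell types were set beside the early genes, since stromal and immune cells express them too. Summed T and NK cell markers (8 genes) were at 10.5 to 18.9 CPM in Sgo1-/+ and 14.1 to 28.9 CPM in wild type (exact permutation p = 0.0390). Summed B and plasma cell markers (6 genes in the files) were at 86.0 to 194 CPM in Sgo1-/+ and 147 to 309 CPM in wild type (exact permutation p = 0.0325). Neither p was adjusted for the number of marker sums compared, and 8.62% of all genes had an exact permutation p under 0.05. Macrophage and granulocyte markers (9 genes) summed to 32.7 to 106 CPM in Sgo1-/+ and 40.1 to 135 CPM in wild type (exact permutation p = 0.221). The 6 markers of distal colon summed to 55.6 to 338 CPM in Sgo1-/+ and 48.5 to 136 CPM in wild type (exact permutation p = 0.117). All 5 measured distal colon markers had a log2 change above 0, 3 of them at an unadjusted p under 0.05, and 0 passed in edgeR. Of all genes, 49.0% were above 0 and 4.31% were higher at that p. The list was chosen with earlier results of these data known, so these counts are a description. Among them Hoxa11, a positional homeobox gene, averaged 8.09 ± 3.06 CPM in Sgo1-/+ and 1.78 ± 0.78 CPM in wild type (SD, n = 6 each), without overlap. Its edgeR adjusted p of 0.280 was the lowest of all 13889 genes, and 0.346% of all genes did not overlap. Markers of enteric neurons and glia (8 genes) had a median sum of 9.25 CPM in Sgo1-/+ and 21.5 CPM in wild type, a difference of -1.19 in mean log2 (exact permutation p = 0.0909), and adipocyte markers (8 genes) one of 92.5 CPM in Sgo1-/+ and 29.96 CPM in wild type, a difference of 0.61 (exact permutation p = 0.496). Both lymphocyte sums and the neuron and glia sum had lower medians in Sgo1-/+, where Dusp1 and Jun were lower. So did the epithelium (18160 against 22586 CPM), macrophage and granulocyte (51.2 against 71.3), smooth muscle (30.2 against 31.8) and fibroblast (29.7 against 30.4) sums. The distal colon, adipocyte and endothelium sums had higher medians in Sgo1-/+. A lower median was thus not particular to lymphocytes or to neurons and glia. In each list 0 markers were at 0 in all libraries. Within the 9 libraries, Dusp1 had r = -0.06 and rho = -0.08 with the T and NK cell sum, and 0.25 for both with the B and plasma cell sum. Jun had r = -0.09 and rho = -0.12 with the T and NK cell sum, and 0.44 and 0.12 with the B and plasma cell sum. The adjusted exact permutation p was 0.993 for each of these r and 1.0 for each rho. The part of these cells, or of position along the colon, in the levels of the early genes was not tested further.

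A wider list of 43 other immediate early genes had 36 measured, 15 with a log2 change above 0 and 21 below, with a median of -0.06, and 0 passed in edgeR. These counts, and those of the lists that follow, are for TMM scaling, and the signs were not recounted under scaling by total counts. Of all genes tested, 49.0% had a log2 change above 0. Fosl2, a FOS relative, averaged 157 ± 14.1 CPM in Sgo1-/+ and 194 ± 19.6 CPM in wild type (SD, n = 6 each). Its log2 change was -0.30 ± 0.10 (SE; edgeR adjusted p = 0.524). The stress gene Gadd45a had -0.46 ± 0.16 and the antiproliferative gene Btg1 -0.26 ± 0.11 (edgeR adjusted p of 0.525 and 0.530). Of 17 bZIP relatives in the AP-1 and ATF families, which share Fosl2 with the wider list, 15 were measured, with Atf7 under 2 identifiers. Of these 16 values 6 were above 0 and 10 below, with a median of -0.08, and Batf3 and Maff had -1.14 ± 0.46 and -0.42 ± 0.22 (SE).

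Among 15 measured feedback phosphatases and MAP kinase inhibitors, 4 had a log2 change above 0 and 11 below, with a median of -0.16 and 0 passing in edgeR. Dusp16 and Dusp8, phosphatases of stress-activated MAP kinases, had log2 changes of -0.28 ± 0.12 and -0.46 ± 0.21, and Spry1, an inhibitor of receptor tyrosine kinase signalling, 0.62 ± 0.22 (SE). Among 13 measured RNA decay partners and relatives of ZFP36, 12 were above 0 and 1 below, with a median of 0.13, and 0 passed. Zfp36l2, a ZFP36 relative, averaged 128 ± 21.8 CPM in Sgo1-/+ and 94.4 ± 16.4 CPM in wild type, a log2 change of 0.43 ± 0.15 (SE; edgeR adjusted p = 0.524). Cnot7 and Cnot2, subunits of the CCR4-NOT deadenylase, had 0.22 ± 0.09 and 0.28 ± 0.16 (SE).

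The kinases and transcription factors upstream had 31 measured genes, 16 above 0 and 15 below, with a median of 0.00 and 0 passing in edgeR. The smallest p-values were those of the coactivator Crebbp at -0.23 ± 0.12, the SRF cofactor Mkl2 at 0.32 ± 0.17 and the kinase Map2k6 at 0.30 ± 0.18 (log2 change ± SE). Of 11 measured early NF-kB targets, 2 were above 0 and 9 below, with a median of -0.17 and 0 passing. The cytokine signalling inhibitor Socs3 had a log2 change of -1.68 ± 0.64 (SE), yet its level was 70.2 CPM in wild type replicate 4 alone, against 4.08 to 6.93 CPM in the 6 Sgo1-/+ libraries and 5.07 to 8.04 CPM in the other 5 wild type libraries. Relb and Ccl20 had -0.26 ± 0.12 and -0.76 ± 0.45 (SE). Of 14 measured heat shock genes 3 were above 0 and 11 below, with a median of -0.09, led by Hsph1 at -0.59 ± 0.38 (SE), and 0 passed.

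The genes whose levels were most like the mean of the 10 were found among 11364 others with a mean of at least 30 counts, by the correlation of genotype-centred log2 CPM over 12 libraries. In order they were Tpm1, Cd84, Rab31, Supt7l, Bpgm, Tnip3, Larp1b, Adm, Casp4 and Duoxa1, with r between 0.948 and 0.903 as a description, and 1 predicted gene ranked among them. Tpm1 encodes a tropomyosin, Adm the peptide adrenomedullin, Casp4 an inflammatory caspase and Duoxa1 a maturation factor of an epithelial oxidase. In TMM-scaled CPM, for 3 of these 10, Rab31, Casp4 and Duoxa1, the 3 highest libraries were again those rich in mitochondrial-like reads. In all 10 the 2 highest libraries were Sgo1-/+ replicate 3 and wild type replicate 3, both of them rich in such reads. Cd84, for example, stood at 29.3 and 28.6 CPM there, against at most 13.1 CPM in the 9 libraries not rich in them. No r without these libraries is given. Among the wider list of early genes, 1 of 32 compared, Klf6, was within the 100 most alike of the 11364 genes compared.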

How the data were processed

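A MiSeq instrument read TruSeq libraries of messenger RNA purified from colonic mucosa, per the labels' protocols. The submitters' processing notes name build mm10 and the tool DESeq, while the aligner, the counter and strand use are not given. The authors deposited, in the raw column of each sample's file, expected counts per gene, of which 69.6% of those above 0 were not whole. The normalized column gives log2 values deposited by the authors, which could be recomputed from the counts to within 0.001. These values were also used in an alternative fit with limma, where 0 of 13889 genes passed.

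Counts were rounded, and the 505 of 38592 rows without an Ensembl identifier (1.79% to 5.40% of counts) were left out. The 10 genes and all gene lists were chosen with earlier results of these data known. Groups were the labelled genotypes. Genes were tested with edgeR 4.0.16 (glmQLFit, TMM, filterByExpr at minimum count 10, minimum total 15) in R 4.3.3, with Benjamini-Hochberg adjustment over all genes tested and a threshold of 0.05. CPM are TMM scaled, and a prior count of 2 was added for log2 CPM. For single values, exact two-sided permutation ran over 924 splits. DESeq2 1.42.0 was an alternative, with other scalings, filters, covariates and libraries. Exon lengths are GENCODE M21 unions within the files' gene spans. No 2 libraries were identical, and replicates differed beyond counting noise (smallest chi-square 14.7 per degree of freedom). Simulated data were used to test the edgeR fit. Of 100 genes changed by a log2 size of 1 it recovered 55%, and of 100 changed by 2 it recovered 94%. Of its 158 calls 9 were false. Changes as small as those of the 10 genes were not simulated. In each list at most 3 genes are named, those of lowest p among genes averaging 10 counts or more.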

Additional observations from a re-analysis of the deposited data

Results flagged for a closer look

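Egr1 reached 35.3 CPM in Sgo1-/+ replicate 4 and 35.4 CPM in wild type replicate 2. The second of these was far above the next wild type library at 22.9 CPM, a gap of 0.664 of the group's whole range. Ier2 in wild type replicate 3 was at 46.7 CPM, with the next wild type library at 33.6 CPM, a gap of 0.628 of the range. Both wild type libraries were picked out for standing far from the other 5 of their group, and chance alone picks out about 1 in 20 groups.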

How the results depend on the processing

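Across alternatives 0 of the 10 genes passed in edgeR or DESeq2. Over all genes DESeq2 called 30 and a fit with the mitochondrial-like share as covariate called 1, against 0. With the replicate number as a block, 0 genes were called and 1644 had an unadjusted p under 0.05, against 1256 without the block. Deviations of same-numbered libraries had r between -0.30 and 0.45. The highest was that of replicate 3, which is rich in mitochondrial-like reads in both genotypes. These values cannot decide whether the numbers pair the samples, and the labels do not say. Scaling by total counts raised the median of all genes by 0.32 log2. Log2 changes were then 0.043 for Fosb, 0.26 for Junb, 0.19 for Ier3 and 0.067 for Zfp36, and relative to the shift 0.23 for Fos, -0.35 for Jun and -0.45 for Dusp1. In that scaling the exact permutation differences were 0.31 for Junb, 0.19 for Ier3, 0.084 for Zfp36, -0.050 for Jun and -0.15 for Dusp1 (neither of the last 2 past 0.05), and 0.35 for Ier2 (p = 0.0455). With the covariate, Fosb was at 0.21 and Ier3 at 0.054, and with no filter Junb was at 0.00031; the cause was not tested. Within the 8 libraries whose column name has no suffix, the exact permutation differences were -0.22 for Jun, -0.062 for Ier2 and -0.36 for Dusp1, and the Fos to Jun ratio differed by 0.61. Within the 4 libraries with a suffix, where p cannot go below 0.333, they were -0.20 for Fos, -0.70 for Jun and -0.70 for Dusp1, and the ratios differed by 0.50 for Fos to Jun and 0.51 for Fos to Dusp1. Without the 3 libraries rich in mitochondrial-like reads, the difference for Jun was -0.41 (exact permutation p = 0.0635). Leaving out single libraries, the log2 change ran from -0.62 to 0.030 for Fosb (above 0 only without wild type replicate 3), -0.089 to 0.024 for Junb, -0.047 to 0.14 for Ier2, -0.31 to 0.13 for Ier3, -0.57 to -0.26 for Atf3 and -0.33 to -0.17 for Zfp36. The differences in mean log2 CPM ran from -0.49 to -0.32 for Jun, -0.092 to 0.020 for Junb, -0.046 to 0.12 for Ier2, -0.29 to 0.057 for Ier3 and -0.54 to -0.41 for Dusp1. Correlated pairs past the adjusted threshold numbered 2 without centring, 1 with total counts, and 0 to 2 without single libraries. A minimum count of 30 removed Fosb, so it has no value there. Fosb and Ier3 rest on few counts, which limits what their comparison can show.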
